A study of Mus musculus with 4 samples.

Results

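Imprinted genes are genes of which, in the tissues where imprinting holds, only the copy inherited from one parent is transcribed. The choice is kept as DNA methylation at control regions that differs between the parental copies, and neighbouring genes of a cluster often answer to the same region with opposite parental copies. Many of these genes act on fetal and placental growth, and several are active in brain, in pituitary and in mesenchymal cells.

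A list of 43 mouse genes known to be imprinted was followed by gene symbol. Membership rests on known imprinting and not on a measured value, although earlier results of these data were known when the list was drawn up. Of these, 42 were among the 24873 genes of the table, and Zrsr1 was not listed. Of the 42, 23 are expressed from the paternal copy and 17 from the maternal copy, whereas Grb10 and Gnas use either copy depending on tissue or promoter. Reads from both parental copies were summed, so the copy in use was not measured here.

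RNA-Seq was performed on cerebral cells isolated as CD31+CD45-, on day 9, from mice with the genotype label Cdh5cre;Mgpflox/flox. In this VE-cadherin cre/ERT2 line the endothelial VE-cadherin promoter drives a Cre that tamoxifen activates, and both copies of Mgp are floxed (fl/fl). Control and tamoxifen mice shared the Cre and the floxed Mgp, so the groups differed by tamoxifen, injected at 75 mg/kg on each of 5 days starting at 10 weeks of age, whereas control mice received none. Each group had 2 libraries, and each library came from cells pooled from 3 mice. The sample labels name the cells by tdTomato, a fluorescent reporter, and not by CD31. The table's columns carry the letters C and A, and from these letters alone C was taken for control and A for tamoxifen.

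The libraries held between 35387438 and 49799321 reads on genes. Values are given as normalized counts, that is reads divided by one factor per library. Mgp, the targeted gene, which encodes matrix Gla protein, stood at 1094 and 1352 normalized counts in control, library 1 and then 2, and at 945 and 909 with tamoxifen, an order kept below. The groups did not overlap, but Mgp did not pass the test (log2 fold change -0.39, SE 0.18, limma, BH-adjusted p = 0.0986).

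Markers of several cell types differed between the groups. All 10 endothelial markers, such as Pecam1 and Cdh5, were lower with tamoxifen, and their summed level was 1149700 and 1168700 in control and 202630 and 103030 with tamoxifen. All 10 pluripotency markers were higher (summed level 108 and 170.2 against 58196 and 45222), as were all 7 fibroblast and meningeal, 6 neutrophil, 5 erythroid, 6 astrocyte and 6 cell cycle genes, 5 of 6 choroid plexus genes, 6 of 8 neuronal genes and the 5 skeletal muscle genes tested. Of 8 pituitary genes tested 7 were lower, and Gh, Prl, Tbx19 and Pou1f1 were at 3 reads or fewer in both tamoxifen libraries. Of 7 pericyte and smooth muscle genes 1 was higher. By the test described below, 28.6% of all genes were higher and 16.0% lower. Genes needed a mean of at least 10 normalized counts over the 4 libraries to be tested. The 5 skeletal muscle genes, Nanog, Sall4, Utf1, Zfp42, Lin28a, Mpo, Elane and the pituitary gene Lhb had control means under 10. They were tested only through the tamoxifen libraries and so could not have come out lower. In bulk RNA, fewer cells of a type and less RNA per cell cannot be told apart, and the part of these markers in the results on imprinted genes was not tested.

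Imprinted genes differed between the groups in both directions, and more of them were higher than lower with tamoxifen. A gene was called when limma gave a BH-adjusted p under 0.05 over all 20485 genes tested and a log2 fold change over 1 in size, on the scale of log2(normalized count + 1). All 42 listed genes were tested, since each had a mean of at least 10 normalized counts over the 4 libraries. Of them 16 were called higher (38.1%) and 7 lower (16.7%), and 19 were not called. Among all genes tested, 44.7% were called, 28.6% higher and 16.0% lower. The median log2 fold change of the imprinted genes was 0.84, beside 0.05 for all genes tested. Phlda2, Ascl2, Magel2 and Slc38a4 had control means under 10 and passed the filter only through the tamoxifen libraries, and 3 of these 4 were called higher. Among the 38 others, 13 were called higher and 7 lower, with a median of 0.44. By the adjusted p alone, 24 genes passed, a limit met by 58.9% of all genes tested. The libraries of the groups did not overlap for 31 of the 42 genes (73.8%), a separation seen in 82.3% of all genes tested.

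The number called higher was 10 without tamoxifen library 1 and 9 without tamoxifen library 2, where the median of the imprinted genes was 0.32, when the remaining tamoxifen library was taken to vary as the control libraries did. Without control library 1 that median was 0.49. Scaling moved the split of calls: with libraries rescaled to equal totals 20 genes were higher and 5 lower, and with quantile normalization 12 were higher and 9 lower. The median over all genes tested moved with it, to 0.54 and -0.23, and the median of the imprinted genes to 1.31 and 0.30.

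**Figure D1:**
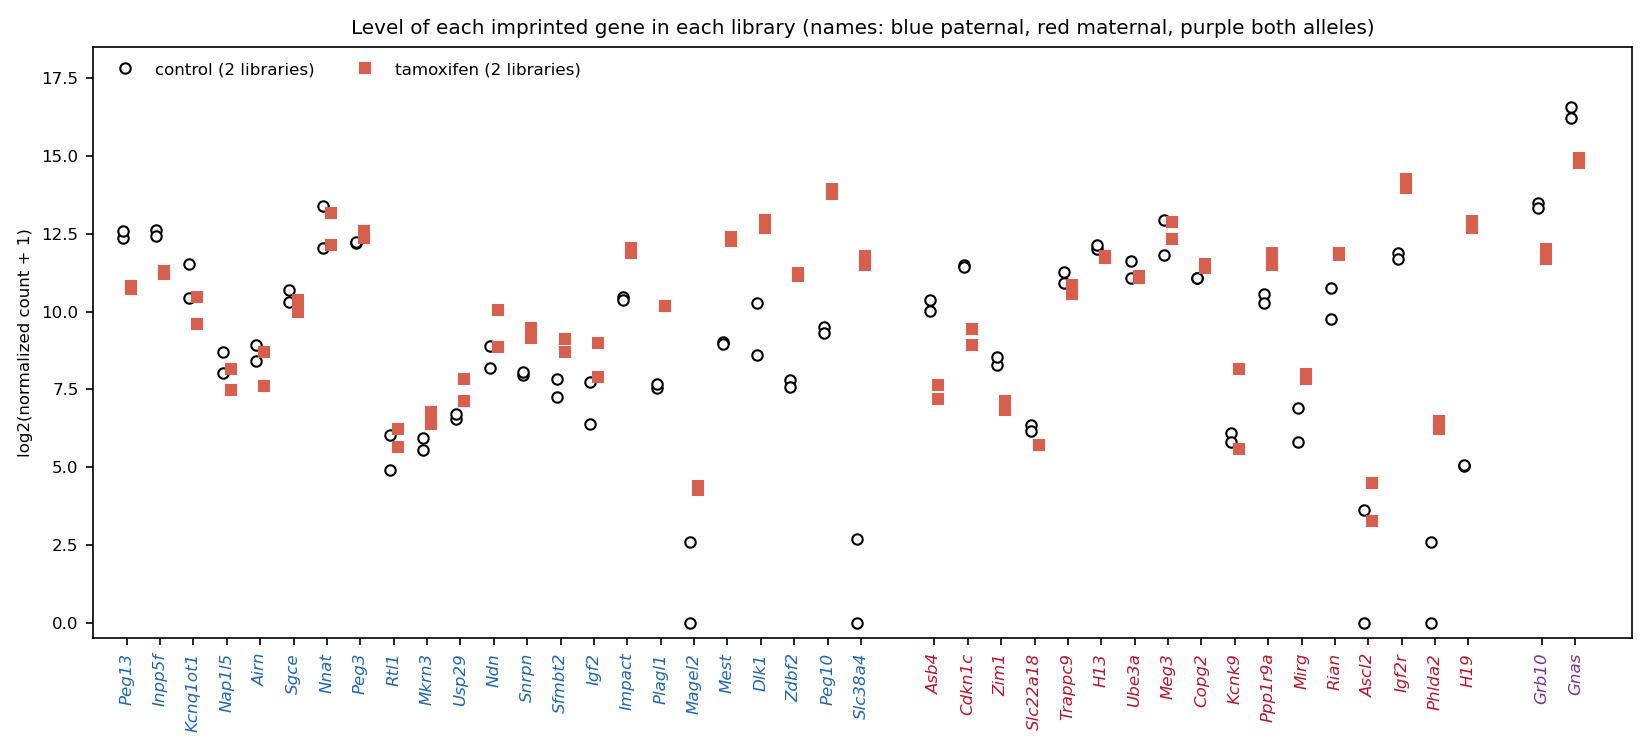
Each column is 1 of the 42 imprinted genes and the vertical axis is log2(normalized count + 1); open circles are the 2 control libraries and squares the 2 tamoxifen libraries. Within each allele class genes are ordered by log2 fold change. H19, Peg10, Slc38a4 and Igf2r lie well above their control values with tamoxifen, whereas Gnas, the most abundant gene in both groups by normalized count, lies below.

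Paternally and maternally expressed genes were then compared, again beside the 28.6% higher and 16.0% lower of all genes tested. Of the 23 paternally expressed genes, 10 were called higher (43.5%), 2 were called lower (8.70%) and 11 were not called, with a median log2 fold change of 0.92 and a range from -1.71 to 10.30. Of the 17 maternally expressed genes, 6 were called higher (35.3%), 3 were called lower (17.6%) and 8 were not called, with a median of 0.40 and a range from -2.77 to 7.75. Both genes that use either copy, Grb10 and Gnas, were called lower. Each parental class therefore held genes called in both directions. Slc38a4 and Magel2 among the paternal genes and Phlda2 and the uncalled Ascl2 among the maternal ones are counted here although they passed the filter only through the tamoxifen libraries. With control means under 10 left out, 8 of 21 paternally expressed genes were called higher and 2 lower (median 0.86), and 5 of 15 maternally expressed genes were called higher and 3 lower (median 0.24). Without tamoxifen library 2 the number called higher was 6 among paternally expressed genes and 3 among maternally expressed genes, and the maternal median was -0.03. The maternal number was also 3 without tamoxifen library 1, and the maternal median was 0.78 without control library 2. Imprinting of 14 genes was taken to be confined to placenta or to be absent from some tissues. Kcnk9, expressed from the maternal copy in brain, was not counted among these 14. With these left out, 8 of 20 paternally expressed genes were called higher and 1 lower (median 0.89), and 3 of 6 maternally expressed genes were called higher and 1 lower (median 1.24).

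The genes fell into 9 clusters with at least 2 listed genes, holding 31 genes, and 11 single loci. The Kcnq1 and Peg10-Sgce clusters held genes called in opposite directions. In the other 7 clusters calls went one way, but 5 of these held a single called gene. Snrpn-Ube3a held 2, but Magel2 passed the filter only through the tamoxifen libraries and so could not have been called lower. Opposite calls among the called genes could therefore be seen only in Dlk1-Meg3, with 3 called genes. The distance between the highest and lowest log2 fold change within a cluster ranged from 2.29 in the Peg3 cluster to 7.34 in the Kcnq1 cluster, with a median of 3.13. Without the genes of control mean under 10 the distance in the Kcnq1 cluster was 1.71 and in the Snrpn-Ube3a cluster 1.53, and Peg10-Sgce, at 7.24, was then the widest.

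**Figure D2:**
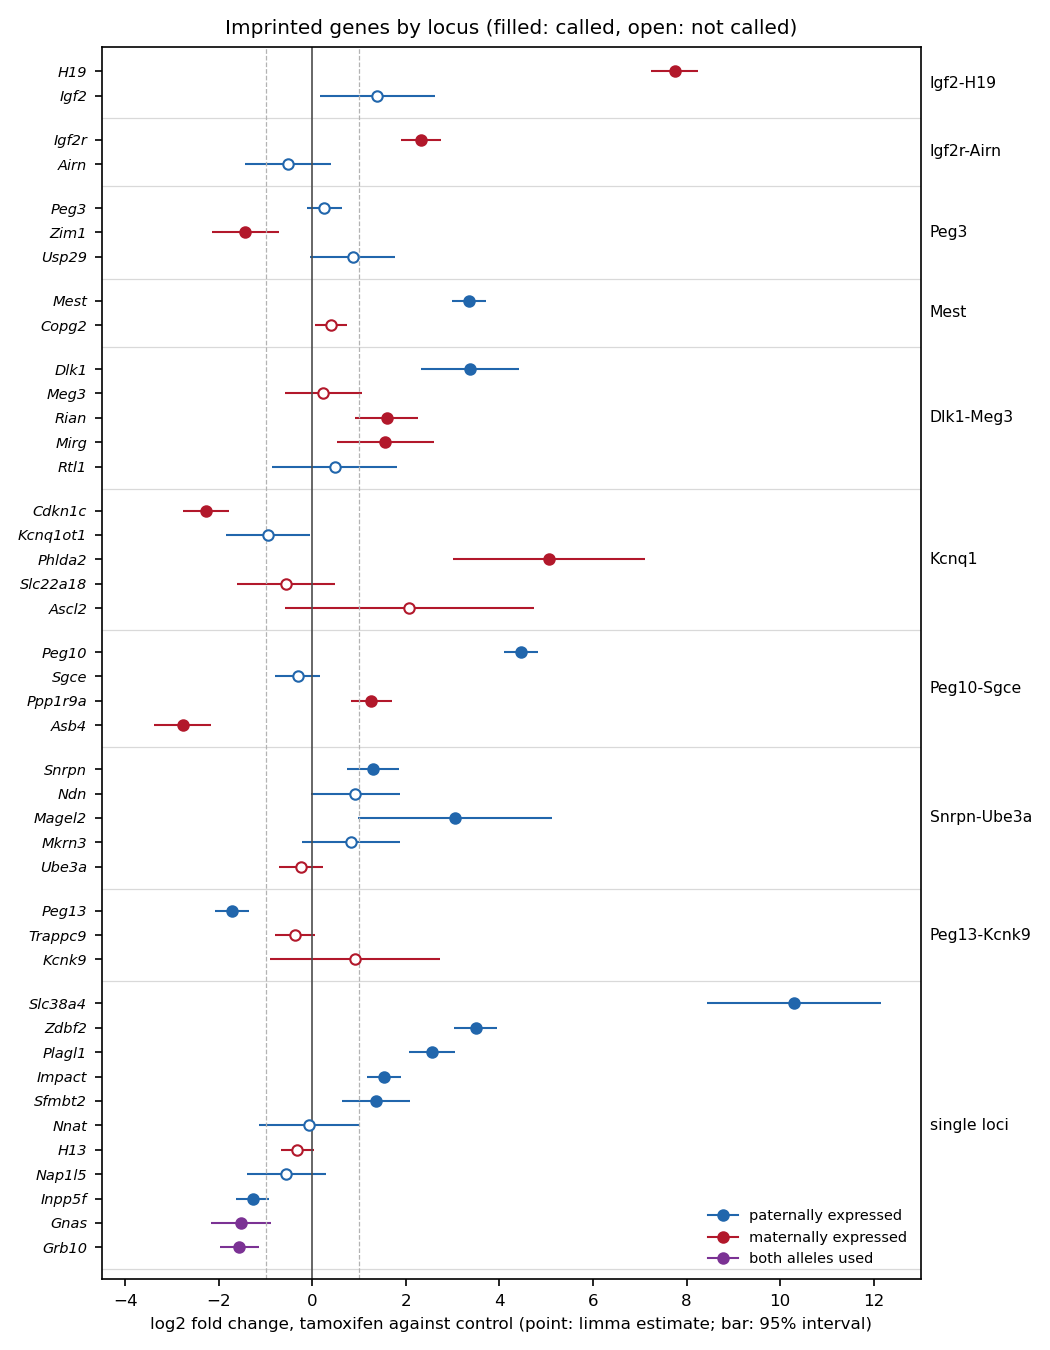
Rows are the 42 imprinted genes grouped by locus, and the horizontal axis is the log2 fold change of tamoxifen against control from limma; bars are 95% intervals not adjusted for the number of genes, colors mark the parental copy and filled points are called genes. Dashed lines mark a log2 fold change of 1 in size. Asb4 at -2.77 and Peg10 at 4.46 share a locus.

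In the Igf2-H19 cluster, H19 was called higher and Igf2 was not called. H19 is a maternally expressed noncoding RNA (chr7:142129262-142133957, GRCm39) and Igf2 (chr7:142204503-142220694) encodes the paternally expressed growth factor IGF2. In mouse both genes use enhancers beyond H19, and the CTCF-bound region between them decides which copy of which gene reaches these enhancers. In control, H19 stood at 31.5 and 32.5 normalized counts, and with tamoxifen at 7624 and 6629. H19 was therefore low in both control libraries and 223-fold higher on the means with tamoxifen (log2 fold change 7.75, SE 0.22, limma, BH-adjusted p = 3.1e-06). Igf2 stood at 82.2 and 210.3 in control and at 235 and 512 with tamoxifen. The Igf2 groups did not overlap, but the test was not passed (log2 fold change 1.39, SE 0.53, limma, BH-adjusted p = 0.0537), and Igf2 was called higher without control library 2 (2.06) and with edgeR (1.35) and DESeq2 (1.37). The Igf2 estimate was lower without control library 1 (0.72), without tamoxifen library 2 (0.83) and with quantile normalization (0.30). The H19 to Igf2 ratio was 0.383 and 0.155 in control and 32.4 and 12.95 with tamoxifen. Per kilobase of annotated exon, mean levels were 11.2 for H19 and 23.7 for Igf2 in control and 2502 and 60.6 with tamoxifen.

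H19 RNA also carries the hairpin of miR-675, shown here because its host had the largest log2 fold change among the noncoding RNAs. Capitals mark the seed, bases 2 to 8, and sequences are from RefSeq (GRCm38.p6).
mmu-miR-675-5p: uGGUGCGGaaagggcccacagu
mmu-miR-675-3p: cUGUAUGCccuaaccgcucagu
The libraries were made from polyadenylated RNA, so the host RNA and not the mature miRNA was measured.

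Igf2r, which encodes the receptor that carries IGF2 to lysosomes, was higher with tamoxifen. Igf2r (chr17:12901293-12988614) is maternally expressed in most tissues, and Airn is the paternally expressed noncoding RNA that starts inside it on the other strand and silences it on that copy. Igf2r stood at 3804 and 3323 normalized counts in control and at 19746 and 16047 with tamoxifen. This was a 5.02-fold rise (log2 fold change 2.32, SE 0.18, limma, BH-adjusted p = 5.2e-05). Airn stood at 488 and 335 in control and at 192 and 413 with tamoxifen. The Airn groups overlapped (log2 fold change -0.52, limma, BH-adjusted p = 0.286), and the estimate was 0.03 without tamoxifen library 1. The Igf2r to Airn ratio was 7.80 and 9.91 in control and 102.9 and 38.8 with tamoxifen. Igf2r and Airn overlap on opposite strands but share 0 exon bases.

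In the Kcnq1 cluster, Cdkn1c and Phlda2 were called in opposite directions although both are maternally expressed. Cdkn1c (chr7:143012069-143014806) encodes p57KIP2, an inhibitor of cyclin-dependent kinases that restrains growth. Cdkn1c stood at 2875 and 2749 normalized counts in control and at 699 and 479.5 with tamoxifen. Cdkn1c fell by 2.28 on the log2 scale (SE 0.21, limma, BH-adjusted p = 0.00010). On the means the control level was 4.77-fold higher. Phlda2 (chr7:143055282-143056887), a growth restrainer best known in placenta, had 0 and 5.01 normalized counts in control, from 0 and 4 reads, and 87.8 and 74.0 with tamoxifen. It was called higher (log2 fold change 5.06, SE 0.88, limma, BH-adjusted p = 0.0018), after passing the filter only through the tamoxifen libraries, so the opposite direction of the calls in this cluster rests on a gene that was tested because it was high there. The size of this estimate depends on the pseudocount, and the call was lost without tamoxifen library 1 (4.94) or 2 (5.18), while the value was 3.76 when control library 1 was left out and 6.35 when control library 2 was.

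Kcnq1ot1, the paternally expressed noncoding RNA whose transcription silences the cluster on that copy, had overlapping groups. It stood at 2930 and 1387 in control and at 777 and 1403 with tamoxifen (log2 fold change -0.95, limma, BH-adjusted p = 0.0650), and was called lower without control library 2 (-1.49) and with edgeR (-1.0). The estimate was -0.41 without control library 1 and -0.52 without tamoxifen library 1. The Cdkn1c to Kcnq1ot1 ratio was 0.981 and 1.98 in control and 0.900 and 0.342 with tamoxifen. Kcnq1 itself, the potassium channel gene that contains Kcnq1ot1, was called lower (log2 fold change -2.19). Slc22a18, a transporter gene, stood at 80.8 and 71.3 in control and at 50.9 and 51.0 with tamoxifen and was not called (-0.57). Ascl2, a transcription factor gene of the early placenta, had 0 and 11.3 in control and 21.7 and 8.63 with tamoxifen. Ascl2 overlapped between the groups (log2 fold change 2.08, limma, BH-adjusted p = 0.154) and was called higher without control library 2 (3.89), whereas the estimate was 0.27 without control library 1 and 0.25 with quantile normalization.

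The Peg10-Sgce cluster on chromosome 6 held the other pair of opposite calls. Peg10 (chr6:4747306-4760517) is a paternally expressed gene derived from a retrotransposon and needed in placenta. Its level was 718 and 627 normalized counts in control and 15742 and 13910 with tamoxifen, a 22.05-fold rise (log2 fold change 4.46, SE 0.16, limma, BH-adjusted p = 3.7e-06). Sgce, which encodes epsilon-sarcoglycan and starts next to Peg10 on the opposite strand and from the same parental copy, stood at 1252 and 1639.6 in control and at 1013 and 1308 with tamoxifen. The Sgce groups overlapped (log2 fold change -0.32, limma, BH-adjusted p = 0.226), and the sign turned when libraries were rescaled to equal totals (0.15). The Peg10 to Sgce ratio was 0.573 and 0.382 in control and 15.5 and 10.6 with tamoxifen, so these neighbours separated although they share a start region and a parental copy.

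The maternally expressed genes of that cluster were called in opposite directions. Ppp1r9a (chr6:4902745-5165667), which encodes neurabin, an actin-binding partner of protein phosphatase, stood at 1500 and 1248 in control and at 2866 and 3733 with tamoxifen (log2 fold change 1.26, SE 0.19, limma, BH-adjusted p = 0.00087). Asb4 (chr6:5383386-5433026), which encodes a ubiquitin ligase adaptor known in vascular development, stood at 1312 and 1026 in control and at 197 and 144.5 with tamoxifen. Asb4 fell by 2.77 on the log2 scale (SE 0.26, limma, BH-adjusted p = 0.00011). The Ppp1r9a to Asb4 ratio was 1.14 and 1.22 in control and 14.5 and 25.8 with tamoxifen.

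**Figure D3:**
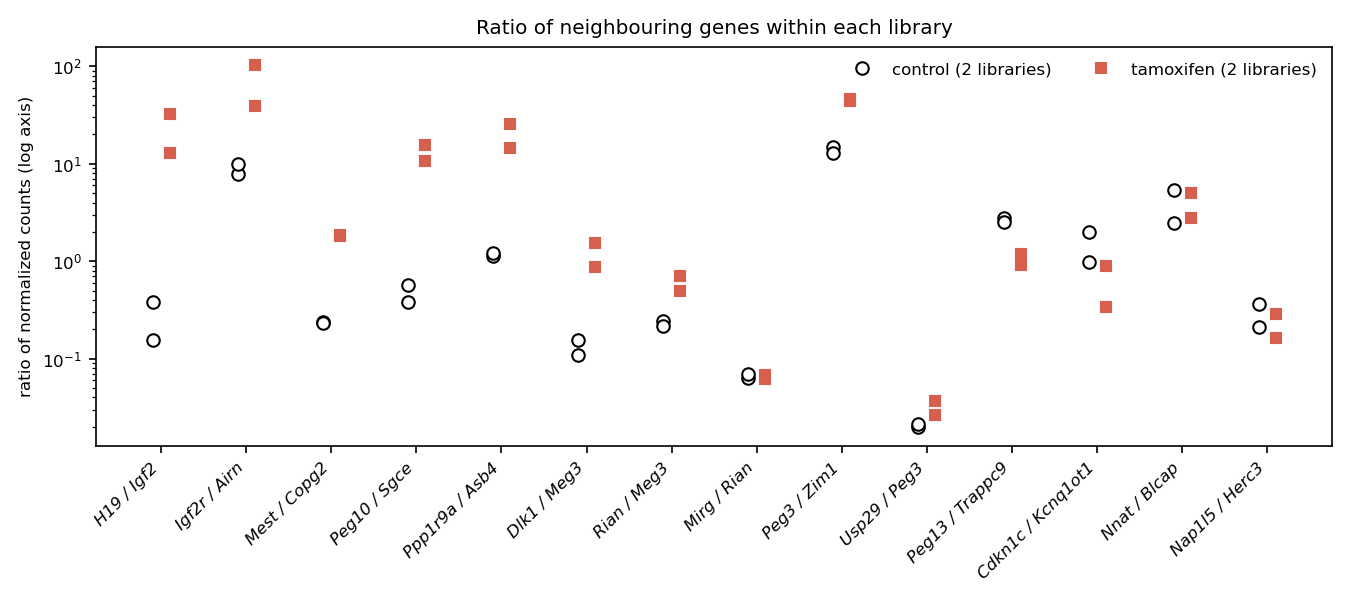
The vertical axis (log scale) is the ratio of normalized counts of neighbouring genes within each library; circles are the 2 control libraries and squares the 2 tamoxifen libraries. The pairs were chosen after the values had been seen, and ratios are not corrected for transcript length. H19 / Igf2 and Peg10 / Sgce cross from below 1 to above 10, whereas Mirg / Rian stays between 0.0625 and 0.0693 in all 4 libraries.

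In the Mest cluster, Mest rose with tamoxifen. Mest (chr6:30723546-30752058), also called Peg1, is paternally expressed and encodes a hydrolase-like protein of mesodermal tissues. It stood at 514 and 499 normalized counts in control and at 5444 and 4914 with tamoxifen, a 10.2-fold rise (log2 fold change 3.35, SE 0.16, limma, BH-adjusted p = 7.6e-06). Copg2, a subunit gene of the vesicle coat COPI on the opposite strand, stood at 2149 and 2143 in control and at 2961 and 2720.3 with tamoxifen. Copg2 passed the adjusted p but not the limit on size (log2 fold change 0.40, limma, BH-adjusted p = 0.0472). The Mest to Copg2 ratio was 0.239 and 0.233 in control and 1.84 and 1.81 with tamoxifen. The genes share 3850 exon bases, 47.7% of Mest's, and the strand setting of the counting is not given in the sources used here. Mest contains the hairpin of miR-335, again shown with the seed in capitals because the host rose.
mmu-miR-335-5p: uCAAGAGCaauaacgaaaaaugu
mmu-miR-335-3p: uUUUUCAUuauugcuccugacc

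In the Dlk1-Meg3 cluster on chromosome 12, 3 of 5 genes were called, all higher. Among all genes tested, 44.7% were called and 28.6% were called higher. Dlk1 (chr12:109418749-109429262) encodes a membrane-bound ligand related to Notch ligands that holds back differentiation, and it is paternally expressed. It stood at 390 and 1237 normalized counts in control and at 7900 and 6565 with tamoxifen, 8.89-fold higher on the means (log2 fold change 3.37, SE 0.45, limma, BH-adjusted p = 0.00051). The control libraries thus differed 3.17-fold from each other, and the estimate was 2.54 when control library 1 was left out and 4.2 when control library 2 was. The call was lost without tamoxifen library 1 (3.24) or 2 (3.50). Dlk1 is known from pituitary cells, and the pituitary markers summed to 13482 and 37720 in control and to 171 and 183 with tamoxifen, and their part in the Dlk1 values was not tested.

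Of the maternally expressed noncoding RNAs of the cluster, Rian and Mirg were called higher and Meg3 was not called. Meg3 (chr12:109506877-109538165) stood at 3571 and 7874 in control and at 5185 and 7530.5 with tamoxifen. The Meg3 groups overlapped (log2 fold change 0.24, limma, BH-adjusted p = 0.587), and the estimate was -0.33 without control library 1 and -0.03 without tamoxifen library 2. Rian (chr12:109570242-109628150), a host of small nucleolar RNAs, stood at 871 and 1715 in control and at 3624 and 3748 with tamoxifen (log2 fold change 1.59, SE 0.29, limma, BH-adjusted p = 0.0023). Mirg (chr12:109696198-109715898), a host of miRNAs, stood at 54.8 and 119 in control and at 227 and 255 with tamoxifen (log2 fold change 1.56, SE 0.44, limma, BH-adjusted p = 0.0177). Both were higher in every tamoxifen library than in any control library. The Rian to Meg3 ratio was 0.244 and 0.218 in control and 0.699 and 0.498 with tamoxifen, whereas the Mirg to Rian ratio overlapped between the groups, at 0.0629 and 0.0693 against 0.0625 and 0.0681. The call was lost for Rian without tamoxifen library 1 (1.62) or 2 (1.57) and for Mirg without either (1.65 and 1.48) and without control library 1 (1.01) and with quantile normalization (0.35). With control library 1 left out the Rian estimate was 1.10, and with control library 2 left out it was 2.08, with 2.11 for Mirg.

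Rtl1, a paternally expressed gene derived from a retrotransposon and needed in placental vessels, stood at 28.8 and 63.8 in control and at 48.8 and 74.0 with tamoxifen. Its groups overlapped (log2 fold change 0.48, limma, BH-adjusted p = 0.495), and the estimate was -0.09 without control library 1 and -0.49 with quantile normalization. The annotation places 10 miRNA hairpins in Mirg, 3 in Rian and 1 in Meg3 on the strand of the host, and 13 opposite to Rtl1. The mature miRNAs of Mirg that share a seed are shown to illustrate what the host carries.
mmu-miR-453: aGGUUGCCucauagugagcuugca
mmu-miR-496a-5p: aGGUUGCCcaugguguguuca
The common seed is GGUUGCC, and neither mature miRNA was measured.

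In the Peg3 cluster, Zim1 fell while its paternally expressed neighbours were not called. Peg3 (chr7:6706882-6733468) encodes a zinc finger protein of neural and mesodermal cells and stood at 4663 and 4842 normalized counts in control and at 5276 and 6124 with tamoxifen. The groups did not overlap, yet the difference was small (log2 fold change 0.26, SE 0.16, limma, BH-adjusted p = 0.191). Usp29, which encodes a ubiquitin-specific protease, stood at 91.8 and 103 in control and at 139 and 226 with tamoxifen (log2 fold change 0.86, limma, BH-adjusted p = 0.0946), and its sign turned with quantile normalization (-0.38). Zim1 (chr7:6674268-6699500), a maternally expressed zinc finger gene, stood at 314 and 372 in control and at 114 and 139 with tamoxifen. Zim1 fell by 1.43 on the log2 scale (SE 0.31, limma, BH-adjusted p = 0.0050), and the call was lost without tamoxifen library 1 (-1.29) or 2 (-1.58) and with rescaling to equal totals (-0.96). The Peg3 to Zim1 ratio was 14.9 and 13.03 in control and 46.4 and 43.9 with tamoxifen.

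Peg3 and Usp29 are transcribed away from each other from one short region, shown here because both paternal genes start in it. In RefSeq their starts lie 164 bases apart. The stretch is chr7:6730333-6730632 (GRCm38.p6, forward strand), and capitals mark the first 50 transcribed bases of Peg3 on the left, which runs on the other strand, and of Usp29 on the right.
Peg3-Usp29: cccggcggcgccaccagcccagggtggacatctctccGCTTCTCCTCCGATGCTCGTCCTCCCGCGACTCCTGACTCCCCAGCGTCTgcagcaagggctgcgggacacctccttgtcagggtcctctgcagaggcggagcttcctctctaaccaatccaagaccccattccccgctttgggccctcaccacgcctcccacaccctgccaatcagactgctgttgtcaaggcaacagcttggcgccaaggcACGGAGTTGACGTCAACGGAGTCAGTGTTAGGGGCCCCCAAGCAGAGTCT
The Usp29 to Peg3 ratio was 0.0197 and 0.0212 in control and 0.0263 and 0.0369 with tamoxifen.

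In the Snrpn-Ube3a cluster, the mouse counterpart of the Prader-Willi and Angelman region, Snrpn and Magel2 were higher. Snrpn (chr7:59630427-59820763), which encodes a spliceosomal protein and is paternally expressed, stood at 248 and 267 normalized counts in control and at 562 and 713 with tamoxifen (log2 fold change 1.30, SE 0.24, limma, BH-adjusted p = 0.0025). The Snrpn call was lost without tamoxifen library 2 (1.13) and with quantile normalization (0.50), and 13.3% of its exon bases are shared with Gm38393 on the same strand. Magel2, a regulator of ubiquitin ligases, had 0 and 5.01 in control, from 0 and 4 reads, and 18.4 and 20.1 with tamoxifen. It passed the filter only through the tamoxifen libraries. It was called higher (log2 fold change 3.05, SE 0.89, limma, BH-adjusted p = 0.0200), but not with DESeq2 (2.95), with quantile normalization (1.53), without the mean-variance trend or without control library 1 (1.75), and the estimate was 4.34 without control library 2.

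The other genes of that cluster were not called. Ndn, which encodes necdin and is known from neurons, pericytes and fibroblasts, stood at 290.4 and 474 in control and at 465 and 1067 with tamoxifen. Its groups overlapped (log2 fold change 0.92, limma, BH-adjusted p = 0.0871), and it was called higher without control library 2 (1.28) and with DESeq2 (1.02). The estimate was 0.32 without tamoxifen library 2, 0.57 without control library 1 and 0.29 with quantile normalization. Mkrn3, which encodes a ubiquitin ligase, stood at 60.3 and 46.3 in control and at 82.4 and 109 with tamoxifen (log2 fold change 0.83, and -0.24 with quantile normalization). Ube3a, the ubiquitin ligase gene that is maternally expressed in neurons, stood at 3124 and 2140.2 in control and at 2249 and 2139 with tamoxifen (log2 fold change -0.24, 0.04 without control library 1 and 0.23 with equal totals). Snhg14, the antisense RNA that silences paternal Ube3a in neurons and is not on the list, was called higher, at 71.2 and 55.1 against 166 and 219 (log2 fold change 1.59, limma, BH-adjusted p = 0.0102). Snhg14 and Ube3a share 1803 exon bases on opposite strands. Of the neuronal markers, 6 of 8 were called higher, beside 28.6% of all genes tested. The neuronal markers summed to 1097 and 1359 in control and to 9896 and 14515 with tamoxifen. The part of these cells in the cluster's values was not tested.

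In the Peg13-Kcnk9 cluster, the noncoding RNA Peg13 fell. Peg13 (chr15:72677449-72682173) is paternally expressed and lies within Trappc9, a gene of a vesicle tethering complex. It stood at 5301 and 6153 normalized counts in control and at 1676 and 1812 with tamoxifen. Peg13 fell by 1.71 on the log2 scale (SE 0.16, limma, BH-adjusted p = 9.7e-05). Trappc9 stood at 1920 and 2451 in control and at 1838 and 1528 with tamoxifen and was not called (log2 fold change -0.37, and 0.10 with equal totals). The Peg13 to Trappc9 ratio was 2.76 and 2.51 in control and 0.912 and 1.19 with tamoxifen. The annotation gives them 1293 shared exon bases on the same strand, 27.4% of Peg13's. Kcnk9, a potassium channel gene expressed from the maternal copy in brain, stood at 67.1 and 55.1 in control and at 46.6 and 285 with tamoxifen. The high value was in tamoxifen library 2 alone, and the Kcnk9 estimate of 0.92 became -0.38 without that library and 2.21 without tamoxifen library 1, and -0.19 with quantile normalization.

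The 11 single loci held 8 paternally expressed genes, 1 maternally expressed gene and both genes that use either copy. Of the paternal ones 5 were called higher, beside 28.6% of all genes tested. Among these 5, Slc38a4 passed the filter only through the tamoxifen libraries and so could not have been called lower. Slc38a4 (chr15:96892693-96958593), an amino acid transporter of liver and placenta, had 5.48 and 0 normalized counts in control, from 4 and 0 reads, and 3540 and 2899 with tamoxifen. The fitted log2 fold change of 10.30 (SE 0.80, limma, BH-adjusted p = 5.3e-05) rests on those 4 control reads, and it was 11.65 with control library 1 left out and 8.95 with control library 2 left out. Zdbf2 (chr1:63312363-63353735), a zinc finger gene studied for its part in growth and feeding, stood at 223 and 188 in control and at 2402 and 2242 with tamoxifen. This was an 11.3-fold rise (log2 fold change 3.50, SE 0.20, limma, BH-adjusted p = 1.4e-05). Plagl1 (chr10:12936248-13007438), also called Zac1, encodes a zinc finger protein that restrains growth and regulates other imprinted genes. It stood at 186 and 204 in control and at 1153 in both tamoxifen libraries, 5.91-fold higher (log2 fold change 2.56, SE 0.21, limma, BH-adjusted p = 6.8e-05).

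Impact, a regulator of the translational stress kinase GCN2, stood at 1420 and 1322 in control and at 4205 and 3745.5 with tamoxifen (log2 fold change 1.53, SE 0.15, limma, BH-adjusted p = 0.00014). Sfmbt2 (chr2:10375306-10600064), a Polycomb group gene imprinted in placenta, stood at 229 and 153 in control and at 556 and 418 with tamoxifen (log2 fold change 1.363, SE 0.31, limma, BH-adjusted p = 0.0066). The Sfmbt2 call was lost without tamoxifen library 1 (1.16) or 2 (1.57) and with quantile normalization (0.34).

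Gnas, Grb10 and Inpp5f were lower with tamoxifen. Gnas (chr2:174126022-174188537), which encodes the stimulatory G protein alpha subunit, stood at 76012 and 96352 normalized counts in control and at 31481 and 27986 with tamoxifen. On the means the control level was 2.90-fold higher (log2 fold change -1.53, SE 0.28, limma, BH-adjusted p = 0.0022), and the call was lost with quantile normalization (-0.41). Grb10 (chr11:11880498-11988683), an adaptor that inhibits insulin and IGF1 receptor signalling, stood at 11607 and 10278 in control and at 4154 and 3292 with tamoxifen (log2 fold change -1.56, SE 0.18, limma, BH-adjusted p = 0.00023). Inpp5f (chr7:128212925-128299176), an inositol phosphatase gene with a paternally expressed brain transcript, stood at 6227 and 5556 in control and at 2512 and 2349 with tamoxifen. Inpp5f fell by 1.28 on the log2 scale (SE 0.15, limma, BH-adjusted p = 0.00029), and by 0.81 with equal totals, where it was not called. On opposite strands, Inpp5f shares 21.7% of its exon bases with Mcmbp and Gnas 9.26% with Gnasas1. All 7 imprinted genes called lower, namely Cdkn1c, Grb10, Asb4, Gnas, Peg13, Inpp5f and Zim1, fell alongside the 10 endothelial markers. The log2 fold changes of these markers ranged from -3.43 to -2.75. The part of endothelial cell number in the values of the 7 genes was not tested.

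Nnat, H13 and Nap1l5 were not called. Nnat, which encodes the membrane proteolipid neuronatin, stood at 4230 and 10798 in control and at 4518 and 9162 with tamoxifen, and the groups overlapped (log2 fold change -0.07, with a 95% interval from -1.14 to 1.00). Its sign turned with equal totals (0.40), with quantile normalization (0.36), without control library 2 (0.61) and without tamoxifen library 1 (0.44). H13, which encodes signal peptide peptidase, stood at 4135 and 4517 in control and at 3379 and 3552 with tamoxifen (log2 fold change -0.32, and 0.15 with equal totals). Nap1l5, an intronless gene within Herc3, stood at 259 and 417 in control and at 177 and 283 with tamoxifen (log2 fold change -0.55).

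Genes that lie inside a host gene were set beside their hosts. The Nap1l5 to Herc3 ratio was 0.213 and 0.368 in control and 0.163 and 0.287 with tamoxifen, and the Nnat to Blcap ratio was 2.45 and 5.38 against 2.75 and 5.05. Both ratios overlapped between the groups. Mcts2, a paternally expressed retrogene inside H13 that is not on the list, stood at 205 and 243 in control and at 423 and 439.97 with tamoxifen and was not called by size (log2 fold change 0.95, limma, BH-adjusted p = 0.0143). The Mcts2 to H13 ratio was 0.0497 and 0.0538 in control and 0.125 and 0.124 with tamoxifen.

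Levels were then compared between the imprinted genes per kilobase of annotated exon. In control the highest group means were Gnas at 7180 normalized counts per kb, Nnat at 3614, Cdkn1c at 1305, Peg13 at 1212, Grb10 at 1067 and Inpp5f at 601. With tamoxifen the order was Nnat at 3290.2, H19 at 2502, Gnas at 2477, Peg10 at 2224, Igf2r at 1910 and Dlk1 at 1199. Cdkn1c, Peg13, Grb10 and Inpp5f left the first 6 places, and H19, Peg10, Igf2r and Dlk1 entered them. The spread within groups does not separate neighbours such as H19, Gnas and Peg10 in the tamoxifen order. All 42 genes together took 0.279% and 0.337% of the control libraries and 0.379% and 0.396% of the tamoxifen libraries, and Gnas gave 53.1% and 55.7% of that sum in control against 21.7% and 19.7% with tamoxifen.

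Some imprinted genes differed as much between libraries of one group as between the groups. For Igf2, Rtl1, Ndn, Nnat and Nap1l5, 5 of 42 genes (11.9%), library 2 exceeded library 1 by more than 1.5-fold in both groups, beside 5.26% of all genes tested. The numbers name the libraries, and the labels do not say whether equal numbers mark a pair. Of the pericyte and smooth muscle markers, 6 of 7 (85.7%) showed the same excess, with median ratios of 1.78 in control and 2.08 with tamoxifen, where all genes tested had medians of 1.03 and 0.945. The excess was also seen in 4 of 6 choroid plexus and ependymal genes (medians 2.5 and 2.88), 4 of 8 pituitary genes (1.97 and 1.97) and 3 of 6 astrocyte genes (1.56 and 2.11). The summed pericyte and smooth muscle markers were 24237 and 42046 in control and 28373 and 58807 with tamoxifen. The part of any of these cell types in the 5 genes was not tested.

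**Figure D4:**
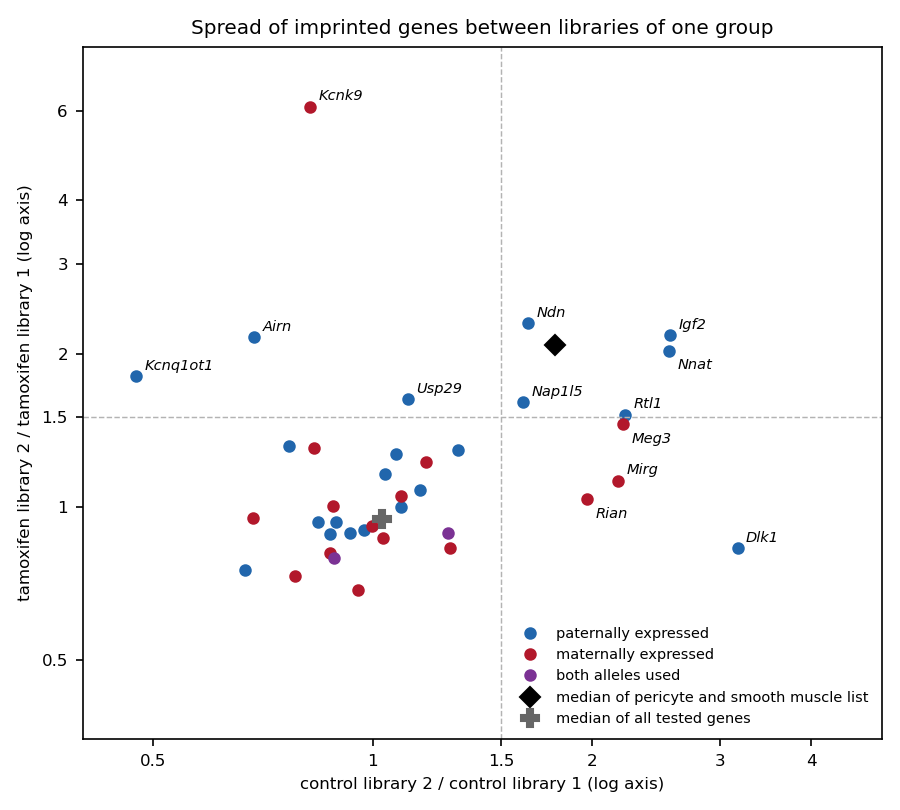
Both axes (log scale) give the ratio of library 2 to library 1, control on the horizontal and tamoxifen on the vertical axis; points are imprinted genes without a 0 in either control library, dashed lines mark 1.5, and the diamond and the cross are medians of the pericyte and smooth muscle markers and of all tested genes. Igf2, Rtl1, Ndn, Nnat and Nap1l5 lie above 1.5 on both axes, whereas Dlk1 is spread in control and Kcnk9 with tamoxifen.

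Genes that keep or erase imprints were examined next. ZFP57 binds the methylated copy of control regions and recruits TRIM28, DNMT1 with UHRF1 copies the methylation at cell division, and TET enzymes oxidize it. Of 16 genes on this list 15 were tested, and 8 were called higher, 1 lower and 6 not called, with a median log2 fold change of 1.30. Beside this, 28.6% of all genes tested were called higher and 16.0% lower. Dnmt3l and Dppa3, counted among the 8, passed the filter only through the tamoxifen libraries and so could not have been called lower. Trim28 had the highest mean level of the list, at 7918 and 8150.4 in control and 23949 and 20897 with tamoxifen (log2 fold change 1.48), followed by Dnmt1 (1.30). Zfp57, chosen after its values were seen, stood at 1400 and 1390.5 in control and at 5624 and 5101 with tamoxifen (1.94). Dnmt3l, a cofactor of DNA methylation in germ cells and embryonic cells, had 2 reads in each control library and 1296 and 1055 normalized counts with tamoxifen, and Dppa3, which protects methylation in the early embryo, had 0 reads in both control libraries and 70.4 and 49.6 normalized counts with tamoxifen. Tet3 was the gene called lower (-1.09), whereas Tet1 was called higher (3.02) and Tet2 was not called (0.20). Uhrf1 was also called higher (4.655). Dnmt3l and Zfp57 are known from embryonic stem cells, all 10 pluripotency markers were higher, and the part of such cells in these values was not tested.

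Partners of IGF2 and DLK1 moved in both directions, with 8 of 11 called higher and 3 lower. The 8 include Lin28a and Lin28b, which passed the filter only through the tamoxifen libraries and so could not have been called lower. Among all genes tested, 28.6% were called higher and 16.0% lower. The lower ones were the receptor genes Igf1r, Insr and Notch1. Igf1r stood at 119290 and 107420 normalized counts in control and at 21132 and 12275 with tamoxifen, and fell by 2.81 on the log2 scale. The RNA-binding protein gene Igf2bp1, a partner of Igf2 mRNA in the embryo, stood at 17.8 and 22.5 in control and at 10746 and 8236 with tamoxifen (8.81). Lin28a, which blocks the maturation of let-7 and is counted among the pluripotency markers too, was called higher (8.69).

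Of 37 host and neighbour genes that are not on the imprinted list, 33 were listed and 31 were tested. Of these 11 were called higher, 7 lower and 13 not called, with a median log2 fold change of -0.11. Tnnt3, Tspan32, Slc22a3 and Dio3, counted among the 11, passed the filter only through the tamoxifen libraries and so could not have been called lower. The shares over all genes tested were 28.6% higher and 16.0% lower. The highest mean levels were those of Atp10a, beside Ube3a, which was called lower (-3.48), and of Cd81. The largest changes were those of Tnnt3 and Lsp1, near H19, which were called higher. Tnnt3, also a skeletal muscle marker, had 0 and 1 read in control and 569 and 429 normalized counts with tamoxifen, and Lsp1 had 17.8 and 73.8 normalized counts against 2318 and 1674. Cd81, a neighbour in the Kcnq1 cluster, stood at 18002 and 20683 in control and at 13765 and 14363 with tamoxifen and was not called (-0.46).

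Promoter sequences were searched for TGCCGC, the hexamer that ZFP57 recognizes when its CpG is methylated, on both strands (GCGGCA on the other). RefSeq windows of 250 bases before to 50 bases after the start were matched for 33 of the 42 genes, and H19, Peg10, Sgce, Trappc9, Kcnk9, Impact, Cdkn1c, Peg13 and Rtl1 had no entry. The hexamer was present for 11 of 33 imprinted genes (33.3%), beside 19.5% of 14626 listed genes, and in 23.1% of the imprinted genes' windows beside 16.7% of all windows. The imprinted genes had 52 windows for 33 genes and all listed genes 18531 for 14626, so imprinted genes had more windows each. The hexamer was present for 7 of 18 paternally expressed genes (38.9%) and 3 of 13 maternally expressed genes (23.1%). The upstream start of Zdbf2 held 3 matches. In Mest, 2 overlapping windows held the same 2 matches and were counted separately. Another start of Zdbf2 and of Mest held 0. Nap1l5, which was not called, also held 2, and the uncalled Copg2, Nnat and a start of Igf2 and of Meg3 held 1. Among the other genes called higher, Plagl1 and a start of Snrpn held 1. Slc38a4, Igf2r, Dlk1, Rian, Mirg, Phlda2, Ppp1r9a, Magel2 and Sfmbt2, also called higher, held 0. Among genes called lower, Zim1 and a start of Grb10 held 1, and Asb4, Gnas and Inpp5f held 0. The Zdbf2 window with matches and 1 of the 2 such Mest windows are shown because both genes rose over 10-fold. Matches are in capitals (GRCm38.p6, forward strand, chr1:63200108-63200407 and chr6:30737800-30738099).
Zdbf2: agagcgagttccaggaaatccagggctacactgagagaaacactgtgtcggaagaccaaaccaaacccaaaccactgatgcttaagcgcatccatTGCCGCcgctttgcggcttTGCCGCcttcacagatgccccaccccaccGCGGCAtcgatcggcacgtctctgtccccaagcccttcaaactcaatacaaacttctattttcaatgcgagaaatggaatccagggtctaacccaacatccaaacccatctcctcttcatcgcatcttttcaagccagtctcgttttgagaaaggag
Mest: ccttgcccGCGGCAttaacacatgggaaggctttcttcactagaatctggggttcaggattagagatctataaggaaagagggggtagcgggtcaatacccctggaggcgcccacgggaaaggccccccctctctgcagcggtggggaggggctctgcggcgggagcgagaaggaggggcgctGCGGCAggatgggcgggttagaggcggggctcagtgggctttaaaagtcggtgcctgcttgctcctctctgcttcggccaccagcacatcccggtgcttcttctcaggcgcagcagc
A match describes the letters only, and methylation was not measured here.

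Of the 23 called genes, 13 kept both direction and call under all 14 alternatives tried, namely H19, Igf2r, Mest, Plagl1, Cdkn1c, Grb10, Peg10, Ppp1r9a, Asb4, Impact, Zdbf2, Slc38a4 and Peg13. All 23 kept their direction in every alternative in which they were tested. Slc38a4, Phlda2 and Magel2 passed the filter only through the tamoxifen libraries, so for them a kept direction was fixed beforehand. Some uncalled genes were called under another scaling: with equal totals Usp29 (1.33), Mkrn3 (1.29), Ndn (1.39) and Igf2 (1.86), and with quantile normalization Airn (-1.43), Slc22a18 (-1.63) and Nap1l5 (-1.55). With 2 libraries a group, an exact permutation test of a single gene cannot go below p = 0.333, so each call rests on limma's spread shared across genes. The study describes its libraries as independent pools of mice. The p-values use the spread between these pools as shared across genes, and not that of a single gene alone.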

How the data were processed

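RNA-Seq of 2 control and 2 tamoxifen libraries was analysed. Per the study's methods, the authors used a stranded mRNA kit, aligned reads to GRCm39 with STAR 2.7.10a, quantified them in the same step, removed genes of low count and normalized the rest with DESeq2 1.36.0. The annotation release, the strand setting and the low-count limit are not given in the sources used here. The deposited signal of a gene is its read count over a size factor that the authors set for each library. The smallest step of a column gave back the reads, and 100% of values came out whole within 0.01 read. Size factors ranged from 0.730 to 1.39, and 3 reads, taken as the floor, correspond to between 2.16 and 4.11 normalized counts, for counting error only. Replicates differed beyond sampling noise (chi-square per degree of freedom 33.1 in control and 81.3 in tamoxifen). Total normalized counts with tamoxifen were 0.722 of control.

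Genes whose mean over the libraries reached 10 normalized counts were tested on the scale of log2(normalized count + 1). The test was limma 3.58.1 under R 4.3.3, with eBayes set to a mean-variance trend and p-values adjusted by BH. The study's cut-offs, an adjusted p of 0.05 and a log2 fold change of 1, were used. edgeR 4.0.16 and DESeq2 1.42.0 were run on recovered reads as alternatives, and the script was tested on simulated data. Gene positions and exon lengths were from GENCODE on GRCm39, and sequences from RefSeq on GRCm38.p6.

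The imprinted genes, their parental copies and all other lists were chosen with earlier results of these data known. Each listed gene is named with its log2 fold change, and values per library are given for called genes, for clusters with opposite calls and for the best-known genes. Other lists are given by counts with up to 4 examples, those of highest level and largest change, except for the cell type markers named. The values of the other uncalled genes and the ratios were added after values had been seen. So were the values of Snhg14, Mcts2, Kcnq1, Insr, Zfp57, Uhrf1, Tet1, Tet2 and Tet3.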

Additional observations from a re-analysis of the deposited data

How the results depend on the processing

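Of 23 called genes, 13 kept direction and call under all 14 alternatives. Dlk1 and Rian kept them under the 10 alternatives that keep all libraries, Phlda2 under the 9 of these in which it was tested. All 23 kept their direction where tested. For Slc38a4, Phlda2 and Magel2, which passed the filter only through the tamoxifen libraries, this was fixed beforehand. Of 19 genes not called, 11 changed sign and 9 were called under at least 1 alternative. The cause of these changes was not tested.

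Over all genes, 9151 were called, 8739 with DESeq2, 9241 with edgeR and 5934 of the fewer genes whose mean reached 100 normalized counts. Leaving out 1 library in turn gave 4979 to 10001 genes. Imprinted genes called higher then ranged from 9 to 19, paternally expressed ones from 6 to 12 and maternally expressed ones from 3 to 7. The paternal median ranged from 0.57 to 1.18 and the maternal median from -0.032 to 0.776.

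With equal totals the paternal and maternal medians were 1.39 and 0.87 and 1 paternally expressed gene was called lower. With quantile normalization the medians were 0.34 and 0.25 and 4 paternally expressed genes were called lower. The maternal median was 0.24 with Grb10 and Gnas counted as maternal and 1.24 without tissue-limited genes.

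Signs turned with equal totals for Sgce (0.15), Ube3a (0.23), Nnat (0.40), H13 (0.15) and Trappc9 (0.10), and with quantile normalization for Usp29 (-0.38), Rtl1 (-0.49), Mkrn3 (-0.24), Nnat (0.36) and Kcnk9 (-0.19). With 1 library left out the estimates ranged from -1.07 to 0.03 for Airn, -0.33 to 0.81 for Meg3, -0.09 to 1.04 for Rtl1, -0.51 to 0.04 for Ube3a, -0.75 to 0.61 for Nnat and -0.38 to 2.21 for Kcnk9.

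With the replicate number as a block, 9525 genes were called, and 18 imprinted genes were higher and 7 lower. Deviations of libraries with the same number had a correlation of 0.0251. With 2 libraries a group this value cannot decide whether libraries of the same number were paired. Depth limits Phlda2, Magel2, Ascl2 and Slc38a4, which had at most 11.3 normalized counts in any control library.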

Other observations

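Ratios not used above varied within as well as between groups. The Ndn to Snrpn ratio was 1.17 and 1.78 in control and 0.827 and 1.496 with tamoxifen, and the groups overlapped. The Igf2 to Igf2r ratio, ligand to clearing receptor, was 0.0216 and 0.0633 in control and 0.0119 and 0.0319 with tamoxifen and overlapped too. The Igf2bp1 to Igf2 ratio was 0.217 and 0.107 in control and 45.7 and 16.1 with tamoxifen. These pairs were chosen after the values had been seen, and no test was run on them.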
